A study of Rattus norvegicus with 2 samples.

Results

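The genes described here act in the cell division cycle and in DNA replication. They were chosen by gene name: every probe set that the array's annotation assigns to exactly 1 gene entered if its symbol carried the name of an MCM, origin recognition (Orc), centromere (Cenp), kinesin (Kif) or Cdc gene, of a cyclin of the A, B, D or E type, or of a numbered cyclin-dependent kinase (Cdk), or if it was 1 of a short list of proliferation genes. Cdc42 and its effectors were left out. The rule found 207 probe sets for 132 genes, of 20826 probe sets for 14217 genes that could be named. A name is not a role, and the rule also took in transport kinesins, kinases of transcription and some unrelated genes. Most of these are kept apart below. Rrm2 is spelled out in the rule but had no probe set naming it alone and was not analysed here.

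The study measured RNA of cultured microglial cells of Sprague Dawley rats. Microglia are macrophages that reside in the brain, and these were kept in a medium with serum. The OGD group (1 array) had been exposed for 3 h to oxygen-glucose deprivation, in which both are withheld from the culture to model ischaemia, and the resting group (1 array) had no exposure. The deposited values are intensities on a linear scale from an Affymetrix rat expression array. With 1 array per group there are no replicates, so no p-value, SE or SD across cultures can be given, and every difference below describes these 2 arrays.

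A dividing cell first licenses its replication origins: the origin recognition complex, with Cdc6 and Cdt1, loads the ring-shaped MCM helicase, which Cdc45 and the GINS complex later activate. Cyclins switch on the cyclin-dependent kinases in turn, D-type cyclins early in G1, E-type at the start of S phase, A-type through S phase and B-type at mitosis, and the anaphase-promoting complex then marks cyclins and other proteins for destruction. Transcription factors of the E2F family drive many S-phase genes, and many mitotic genes are controlled through CHR and CCAAT elements in their promoters. Microglia can divide in the injured brain, and in culture they divide in response to growth factors.

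A probe set counted as measured where its intensity was above the median of its array, 19.7 on the OGD array and 19.6 on the resting array, here called the floor. Each gene was represented by its brightest probe set. Of the 132 genes, 94 were above the floor on both arrays, 4 on 1 array and 34 on neither. Genes under the floor are named below without a fold, and such a gene under the floor is not shown to be absent. Differences are log2 OGD minus log2 resting, so a positive value means higher on the OGD array. Where a gene or probe set is given a single value without a unit, it is this log2 difference, and values given for each array are intensities.

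No cell cycle or replication gene differed by 1.5-fold, the threshold named in the study's design text. Of the 98 measured genes, 0 were higher and 0 lower by that amount, beside 0.0731% and 0.0418% of all 9580 measured genes, or 0.115% in either direction. At a smaller fixed size of 1.2-fold, 5 were higher, which was 5.10% of them against 3.56% of all measured genes, and 3 were lower, which was 3.06% against 3.97%, so that 8 genes or 8.16% were past it in either direction, against 7.53% of all. Those higher on the OGD array were the cohesin gene Stag2, the transport kinesin Kif5b, cyclin E2 (Ccne2), the centromere motor Cenpe and the helicase subunit Mcm5. Those lower were the kinesin Kif12 and the centromere genes Cenpv and Cenpt. The shares lie near those of all genes and are no result about these genes as a group.

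The median difference of the measured genes was 0, against -0.0076 for all measured genes. By any amount 44 were higher, 48 lower and 6 exactly equal on both arrays, while of all measured genes 42.8% were higher, 51.3% lower and 5.86% equal. Among genes above the floor on both arrays the SD of the differences was 0.166 across these genes and 0.148 across all. The name Stag2 stands in the membership rule with its difference already known, and without it 4 genes were higher by 1.2-fold and the median was again 0. Without Stag2 the share past 1.2-fold in either direction was 7.22% (7 of 97), below the 7.53% of all genes, and the SD was 0.159.

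**Figure D1:**
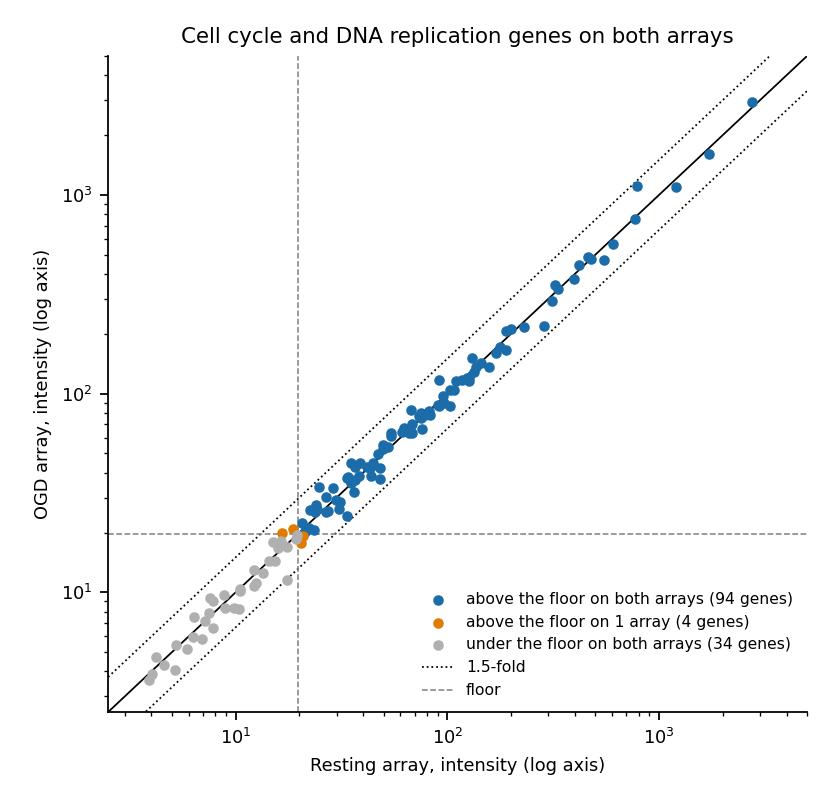
Intensity of each of the 132 genes on the OGD array (vertical, log axis) against the resting array (horizontal, log axis), each by its brightest probe set, with the floors dashed and 1.5-fold dotted. All 98 genes above a floor lie between the 1.5-fold lines.

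The intensities of the 8 genes past 1.2-fold ran as follows. Stag2, a subunit of the cohesin ring that holds sister chromatids together, had an intensity of 1109 on the OGD array, against 788 on the resting array, which is 1.41-fold. Its next probe set had 265 on the OGD array and 206 on the resting array, a log2 difference of 0.37, and the third was under the floor on both. Both measured probe sets of Stag2 were therefore higher on the OGD array. Ccne2, which activates Cdk2 at the start of S phase, had 117 on the OGD array and 91.2 on the resting array, or 1.28-fold higher. Mcm5, a subunit of the helicase ring, had 82.6 on the OGD array and 67.3 on the resting array, or 1.23-fold higher. Ccne2 had a further probe set under the floor, and Mcm5 had no other.

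Cenpe, a kinesin that carries chromosomes to the spindle equator, had 44.8 on the OGD array and 35.1 on the resting array, or 1.28-fold higher, from its single probe set. Kif5b, a heavy chain of the kinesin that moves cargo along microtubules, had 34.0 on the OGD array and 24.7 on the resting array, or 1.38-fold higher, and both values lie near the floor. On the lower side, Cenpv, a protein of the centromere, had 219 on the OGD array and 287 on the resting array, 1.31-fold lower. A second probe set of Cenpv was also lower, by a smaller difference of -0.11, while Cenpe and Kif5b had no second probe set above the floor. Cenpt, which links the inner centromere to the microtubule-binding outer kinetochore, had 37.4 on the OGD array and 48.3 on the resting array, 1.29-fold lower. Kif12, a kinesin, had 24.1 on the OGD array and 33.6 on the resting array, 1.40-fold lower, again near the floor.

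Of the promoters of these genes 4 are shown so that the difference of a gene can be read beside its regulatory sequence. Each runs from 250 bases before to 50 bases after the gene's start in RefSeq (build GRCr8), 5′ to 3′ on the strand of the gene, with every match in capitals: the E2F words TTTGGCGC and TTTCCCGC and TTTGCCGC and TTTCGCGC, the CHR words TTTGAA and TTCGAA, and CCAAT, each on either strand. Ccnb2 is shown as a B-type cyclin and Stag2 for the largest difference, and Mcm5 and Mcm7 were chosen after their values and motifs were seen.
Mcm5 (chr19:13488563-13488862, plus strand): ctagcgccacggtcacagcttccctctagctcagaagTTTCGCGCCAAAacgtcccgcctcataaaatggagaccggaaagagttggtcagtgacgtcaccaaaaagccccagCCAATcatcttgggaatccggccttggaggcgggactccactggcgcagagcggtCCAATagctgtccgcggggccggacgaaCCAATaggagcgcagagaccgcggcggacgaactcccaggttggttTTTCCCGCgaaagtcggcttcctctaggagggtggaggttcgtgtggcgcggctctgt
Mcm7 (chr12:22163129-22163428, minus strand): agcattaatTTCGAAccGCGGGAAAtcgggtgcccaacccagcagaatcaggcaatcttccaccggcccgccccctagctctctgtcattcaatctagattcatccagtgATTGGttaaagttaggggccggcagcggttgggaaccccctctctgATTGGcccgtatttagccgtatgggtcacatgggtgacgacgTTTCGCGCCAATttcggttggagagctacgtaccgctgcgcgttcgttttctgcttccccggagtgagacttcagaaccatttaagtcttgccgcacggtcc
Ccnb2 (chr8:79981609-79981908, minus strand): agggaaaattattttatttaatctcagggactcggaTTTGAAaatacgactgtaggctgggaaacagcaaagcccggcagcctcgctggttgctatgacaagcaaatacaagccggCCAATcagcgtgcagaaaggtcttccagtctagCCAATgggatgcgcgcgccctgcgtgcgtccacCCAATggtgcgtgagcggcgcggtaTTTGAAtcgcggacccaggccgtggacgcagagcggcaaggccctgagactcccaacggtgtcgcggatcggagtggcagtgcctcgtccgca
Stag2 (chrX:125840151-125840450, plus strand): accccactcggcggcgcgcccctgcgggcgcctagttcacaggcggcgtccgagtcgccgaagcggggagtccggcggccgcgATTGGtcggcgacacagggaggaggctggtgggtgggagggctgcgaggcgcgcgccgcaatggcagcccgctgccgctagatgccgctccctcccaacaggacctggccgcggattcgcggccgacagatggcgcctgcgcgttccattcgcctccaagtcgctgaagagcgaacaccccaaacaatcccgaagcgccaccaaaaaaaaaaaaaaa

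Counted from the start of the gene, Mcm5 holds E2F words on opposite strands at -213 and -209, which overlap, a further E2F word at -8 and 3 CCAAT boxes. Mcm7 has E2F words at -233 and -52, of which the nearer overlaps a CCAAT, as well as a CHR word at -241 and CCAAT on the opposite strand at -140 and -94. Ccnb2, which encodes a mitotic cyclin, has 3 CCAAT boxes followed by a CHR word at -43, and another CHR word at -214. The promoter of Ccnb1, the other measured B-type cyclin, is not shown. It holds CCAAT at -82 and -50 but no CHR word. Stag2 has a single CCAAT on the opposite strand. The promoters of Kif12 and Ccne1 hold none of these words, which says only that the letters are not in this window. The log2 differences of the genes shown were 0.30 for Mcm5, 0.17 for Mcm7, -0.08 for Ccnb2 and 0.49 for Stag2.

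Of the 132 genes, 110 had a promoter in the table. An E2F word was found in 14 of these (12.7%), against 2.14% of all 33469 promoters and 3.92% of the 7994 promoters of measured genes. A CHR word was found in 30 (27.3%), against 19.7% of all promoters and 12.5% of those of measured genes. CCAAT was found in 59 (53.6%), against 37.5% of all promoters and 37.4% of those of measured genes. By role, E2F words were found in 7 of 9 promoters of the MCM family, 2 of 5 of the origin factors and 1 of 10 of the mitotic kinesins. CHR words were found in 5 of the 10 mitotic kinesin promoters and in 4 of 6 of the mitotic kinases, checkpoint and passenger proteins.

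The differences of genes with and without a match can be set side by side. The 9 measured genes with an E2F word had a median log2 difference of 0, with 4 higher and 4 lower. The 74 measured genes with a promoter but no such word had -0.02, with 32 higher and 39 lower. The 20 measured genes with a CHR word had a median of -0.07, with 6 higher and 13 lower. The 63 without had 0, with 30 higher and 30 lower. The 45 measured genes with CCAAT had a median of 0.01, with 23 higher and 19 lower. The 38 without had -0.03, with 13 higher and 24 lower. These medians are a description without a test. Past 1.2-fold were 1 of the 9 genes with an E2F word, 0 of the 20 with a CHR word and 4 of the 45 with CCAAT. Without the respective word these were 5 of 74, 6 of 63 and 2 of 38, beside 7.53% of all measured genes.

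**Figure D2:**
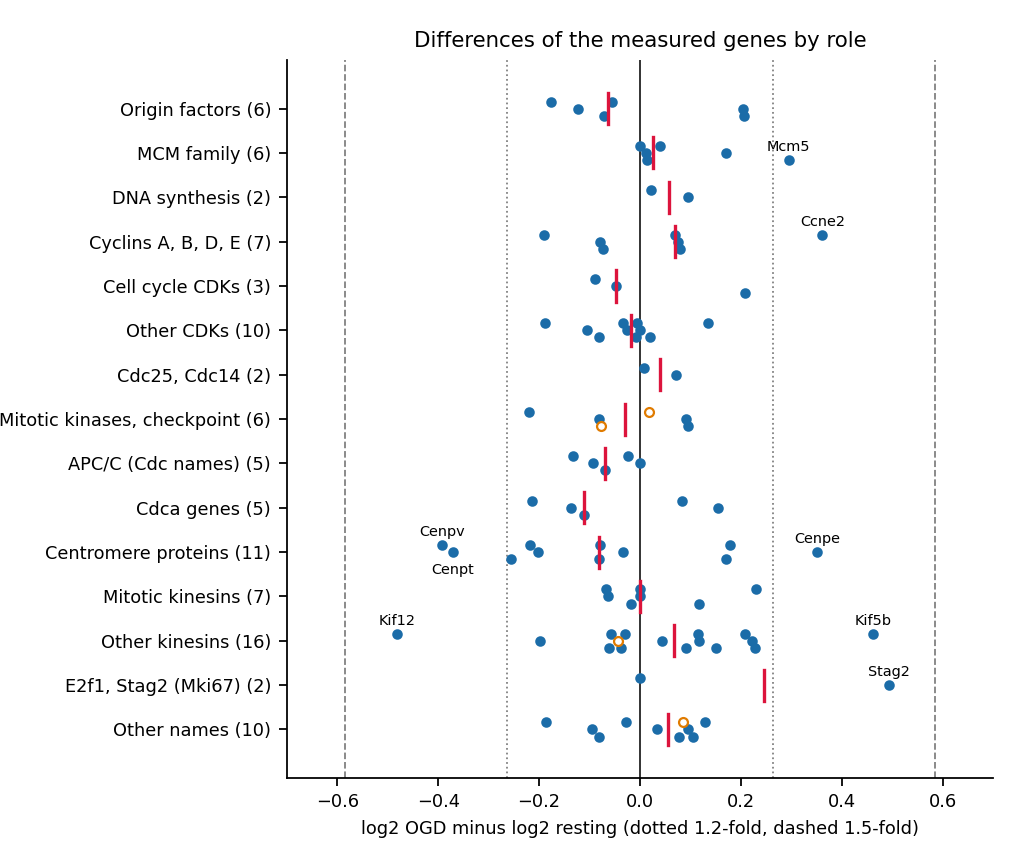
Log2 OGD minus log2 resting of the 98 measured genes by role, with the number of genes of each role in brackets, the role medians as red bars, open points for genes above the floor on 1 array (bounds), dotted lines at 1.2-fold and dashed lines at 1.5-fold. The 8 named genes lie past 1.2-fold and none lies past 1.5-fold.

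Origin recognition subunits differed among themselves. Orc2 and Orc4 were higher on the OGD array, with intensities of 27.6 and 150.2 there, against 23.9 and 130.3 at rest, and Orc4 was higher in both its probe sets (0.21 and 0.12). Orc3 was lower, at 38.6 on the OGD array and 43.6 on the resting array. Orc5 and Orc6 had differences of -0.07 and -0.06, and the second probe set of Orc5 had 0.10. Cdc45, which joins the helicase when an origin fires, had 1101 on the OGD array and 1199 on the resting array (-0.12) in its brightest probe set, whose suffix marks probes that also match other transcripts, and -0.04, -0.01 and 0.03 in the other 3. Orc1, which recognises the origin with the other subunits, was under the floor on both arrays.

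In the MCM family 5 of 6 measured genes were higher and Mcm3 was equal on both arrays, with a median of 0.03. The share higher among all measured genes was 42.8%. Mcm4 and Mcm6 were higher by only 0.01 each, far under the SD within genes of 0.174 given below. Mcm3 turned lower when the arrays were centred on their medians and higher after quantile or loess scaling. With probe sets averaged by gene, 4 of the family were higher and 1 lower. Besides Mcm5, Mcm7 had 61.1 on the OGD array and 54.3 on the resting array, or 1.13-fold higher. Mcm4 and Mcm6, further subunits of the same ring, had 334 and 104 on the OGD array, against 332 and 103 on the resting array. Their ring is built from equal numbers of each subunit, and in these values the subunits differed by 0 to 0.30. Mcm10, an initiation factor, had 0.04 in its brightest probe set and -0.44 in the other, with 27.0 on the OGD array and 36.6 on the resting array. Mcm2, Mcm8, Mcm9 and Mcmbp were under the floor on both arrays.

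Among genes of DNA synthesis, Pcna, the sliding clamp of the replicative polymerases, had 2928 on the OGD array and 2742 on the resting array, a log2 difference of 0.09. Top2a, the topoisomerase that untangles replicated chromosomes, had 35.4 on the OGD array and 34.9 on the resting array. Both thus lay within 1.2-fold. Tyms and Rrm1, enzymes that make thymidylate and deoxyribonucleotides, were under the floor on both arrays.

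The E-type cyclins went opposite ways. Ccne1 had 166 on the OGD array and 189 on the resting array, 1.14-fold lower, while Ccne2 was higher as given above. Among D-type cyclins, which link growth signals to the cell cycle, Ccnd1 had 486 on the OGD array and 464 on the resting array, and its 3 probe sets had log2 differences of 0.07, 0.04 and 0.01. Ccnd1 was thus higher in every probe set, by small amounts. Ccnd3 had 0.08 and Ccnd2 -0.07. Of the mitotic cyclins, Ccnb1 had 211 on the OGD array and 199.7 on the resting array (0.08, with -0.03 in its other probe set) and Ccnb2 had 217 and 229 (-0.08). The A-type cyclins Ccna1 and Ccna2 were under the floor on both arrays.

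Of the cyclin-dependent kinases that drive the cell cycle, Cdk1, the mitotic kinase, had 104 on the OGD array and 108 on the resting array. Cdk4, the partner of D-type cyclins, had 292 on the OGD array and 311 on the resting array. Cdk2 had 25.97 on the OGD array and 22.5 on the resting array, 1.16-fold higher and near the floor. Cdk6 and Cdk7 were under the floor on both arrays. Cdc25a and Cdc25b, phosphatases that activate cyclin-dependent kinases such as Cdk1, had 0.07 and 0.01. The Cdc14 phosphatases Cdc14a and Cdc14b were under the floor.

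The other numbered kinases, many of which act in transcription rather than in the cell cycle, had a median of -0.02 over 10 measured genes, with 2 higher and 7 lower, a split that became 5 and 5 after loess scaling, 4 and 6 after quantile scaling and 2 and 8 after median centring. Cdk20 had 42.3 on the OGD array and 48.2 on the resting array, 1.14-fold lower, and Cdk17 had 352 and 321, 1.097-fold higher. Cdk16 and Cdk10 had -0.10 and -0.08. Cdk14 had -0.03 in its brightest probe set and -0.47 in the other measured one, at 27.2 on the OGD array and 37.7 on the resting array. Cdk13, a kinase of RNA polymerase II, was equal on both arrays in its brightest probe set and had -0.01 and -0.24 in the others. Cdk12 and Cdk19 were under the floor on both arrays.

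The kinases and checkpoint proteins of mitosis were mixed, with 3 higher and 3 lower of 6 measured. Aurka, the spindle pole kinase, had 26.4 on the OGD array and 30.7 on the resting array, 1.16-fold lower and near the floor. Plk1, which acts from mitotic entry to exit, had 160.3 on the OGD array and 169.5 on the resting array. Bub1, a kinase of the spindle checkpoint, had 446 on the OGD array and 418 on the resting array. Birc5 (survivin), of the chromosomal passenger complex, had 80.3 on the OGD array and 75.2 on the resting array. Each of the last 3 lay within 1.2-fold. Cdca8 (borealin), of the same complex, was above the floor only on the OGD array, at 19.9, and Bub1b, a checkpoint protein, only on the resting array, at 20.8, so their differences are bounds of 0.02 and -0.08. Aurkb was under the floor on both.

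Among the anaphase-promoting complex genes named Cdc, 4 of 5 measured were lower, with a median of -0.07. Cdc27 was equal, and became lower under each of the 3 scalings tried. Cdc20, which activates the complex, had 1608 on the OGD array and 1714 on the resting array, and its other measured probe sets had -0.11 and 0. The subunit Cdc16 was lower in both probe sets (-0.13 and -0.08) and Cdc26 in all 3 (-0.02, -0.11 and -0.20). Cdc23 had -0.07 near the floor, with 20.2 on the OGD array. Each of these genes lay within 1.2-fold in its brightest probe set. A lower value was also the more frequent direction among all measured genes. Subunits named Anapc, from a further list described below, went both ways. Anapc2, Anapc4 and Anapc5 were higher (0.10, 0.06 and 0.16). Anapc1, Anapc7, Anapc11 and Anapc13 were lower (-0.02, -0.21, -0.13 and -0.02), with 0.09 in the other probe set of Anapc7.

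Of the cell division cycle associated genes, Cdca7l had 136 on the OGD array and 158 on the resting array, 1.16-fold lower. Cdca4 had -0.14 and Cdca7 -0.11. A further Cdca4 probe set was above the floor on the OGD array alone, with a bound of 0.11. Cdca2, which brings a phosphatase to chromosomes as mitosis ends, had 37.8 on the OGD array and 34.0 on the resting array, 1.11-fold higher, and Cdca3 had 0.08. Cdca5 (sororin), which stabilises cohesin, was under the floor on both arrays.

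Of the 11 measured genes named as centromere proteins (Cenp), 3 were higher and 8 lower. The shares of all measured genes were 42.8% higher and 51.3% lower. The Cenp genes had a median of -0.08 and an SD of 0.238, against 0.148 for the whole array. Kinesins that mainly carry cargo had an SD of 0.217, so a wide spread was not particular to the Cenp genes. Both SDs rest on few genes. The Cenp group was formed by name, and its higher genes include Cenpj (0.18), which is not a centromere protein. Besides Cenpv, Cenpt and Cenpe, Cenpm had 86.2 on the OGD array and 103 on the resting array, 1.19-fold lower, and Cenpx had 470.4 and 547, 1.16-fold lower. Cenpm and Cenpt belong to the network of proteins that sits on centromeric chromatin throughout the cell cycle, and Cenpx works with Cenpt and also in DNA repair. The remaining 6 measured genes lay between -0.20 and 0.18. Cenpa, the histone that marks the centromere, and Cenpf, an outer kinetochore protein, were under the floor with Cenpi, Cenpk, Cenpl and Cenpn.

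The mitotic kinesins had a median of 0, with 2 higher, 3 lower and 2 equal, with 4 higher and 3 lower after quantile or loess scaling, and with 2 higher and 5 lower after median centring. Kif11, which pushes spindle poles apart, had 33.7 on the OGD array and 28.8 on the resting array, 1.17-fold higher. Kif23, which builds the central spindle, had 37.1 and 34.2. Kif18b, Kifc1 and Kif20a had -0.07, -0.06 and -0.02, and Kif22 and Kif2c were equal on both arrays. Kif14, Kif15, Kif18a and Kif20b were under the floor.

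Kinesins that mainly carry cargo had 9 higher and 7 lower of 16 measured genes, and a median of 0.07. Kif16b, an endosomal motor, had 63.6 on the OGD array and 54.3 on the resting array, 1.17-fold higher. Kifbp, which binds kinesin motors, had 44.7 on the OGD array and 38.7 on the resting array, 1.16-fold higher. Kif3c, a further kinesin, had 0.22 in 1 probe set and -0.23 in the other, so its direction depends on the probe set. Kifap3, a kinesin-associated protein, had 0.04 and 0.07 in its brighter probe sets and -0.49 in the dimmest.

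The proliferation marker Mki67 was under the floor, at 16.8 on the OGD array and 15.9 on the resting array, and E2f1, the S-phase transcription factor, had 36.7 on both. Names with other roles lay within 1.2-fold in their brightest probe sets. Cdc73, of a complex that travels with RNA polymerase II, had 206 on the OGD array and 188 on the resting array. Cdc37, a co-chaperone of Hsp90, had 566 on the OGD array and 604 on the resting array. Cdc5l, a splicing factor, had 0.10, Cdca5l1 had 0.11, and Cdc34, a ubiquitin-conjugating enzyme, had -0.03 with 0.03 and -0.12 in its other probe sets. Cdcp1, a membrane protein of the cell surface, had -0.19 in 1 probe set and 0.39 in the other.

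**Figure D3:**
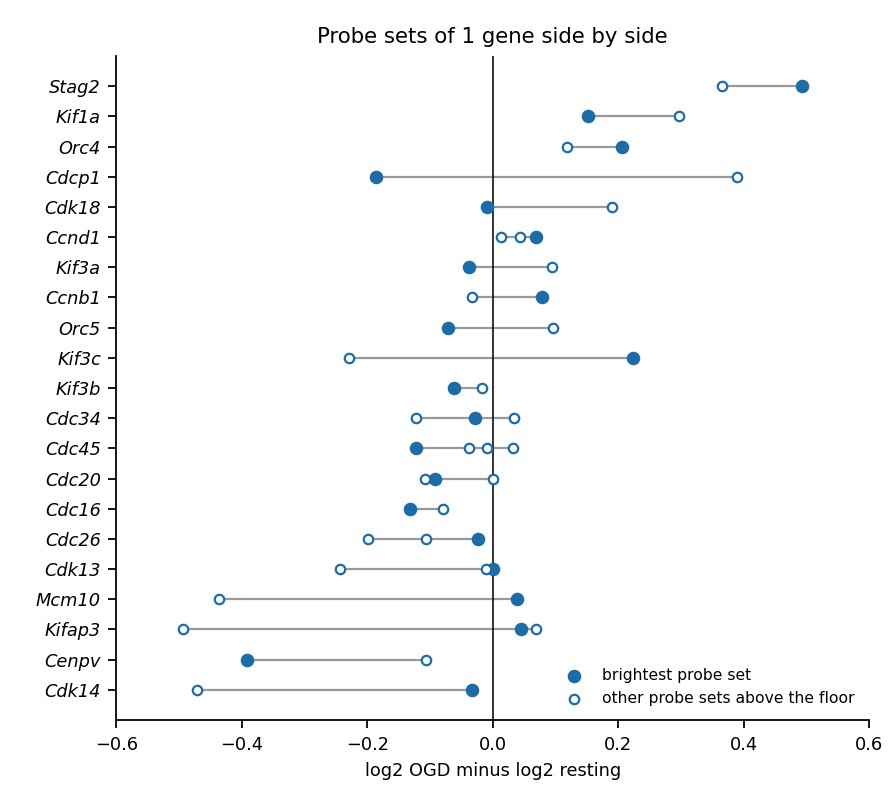
Log2 OGD minus log2 resting of every probe set above the floor on both arrays for the 21 genes with more than 1 such probe set, filled for the brightest and open for the others. Stag2, Kif1a, Orc4 and Ccnd1 are higher in every probe set, and Kif3c, Cdcp1 and Mcm10 have points on both sides of 0.

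Without replicates, the spread between probe sets of the same gene was measured. Over the 21 genes with more than 1 probe set above the floor, the SD within genes was 0.174 (50 probe sets), against 0.147 over 1902 genes of the whole array. This covers noise that differs between probe sets, and not labelling effects they share or the spread between cultures. In 9 of the 21 genes the probe sets all went the same way. Of these, Stag2, Kif1a, Orc4 and Ccnd1 were higher, and Cdc16, Cdc26, Cdk14, Cenpv and Kif3b were lower. The same share was not computed over all genes, so the count is no result about these genes. Of the 8 genes past 1.2-fold, Stag2 and Cenpv had a second probe set above the floor, and it went the same way in both.

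**Figure D4:**
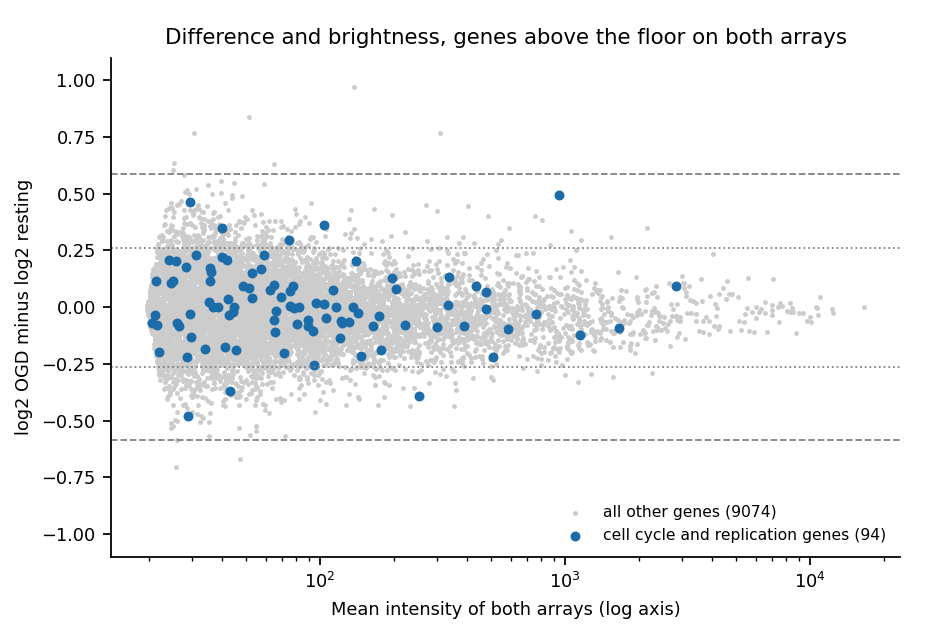
Log2 OGD minus log2 resting against mean intensity (log axis) for the 9168 genes above the floor on both arrays, with the 94 cell cycle and replication genes in blue, dotted lines at 1.2-fold and dashed lines at 1.5-fold. The spread of all genes narrows with brightness, and Stag2 stands high at the right among bright genes.

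The spread of differences depended on brightness. Among genes under 39.3 in mean intensity the SD was 0.191 for the 25 cell cycle and replication genes and 0.168 for all. Between 39.3 and 98.2 it was 0.154 for 35 genes and 0.150 for all. At 98.2 and above it was 0.162 for 34 genes and 0.122 for all, and 3 of the 34 were past 1.2-fold, against 3.8% of all genes this bright. Those 3 were Stag2, Ccne2 and Cenpv. Without Stag2, which was chosen with its difference known, 2 of 33 were past 1.2-fold (6.06%) and the SD was 0.137, values added after seeing the data. In the dimmest and the middle range, 2 of 25 and 3 of 35 were past 1.2-fold, against 11% and 7.85% of all genes.

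Further genes of the same pathways, from lists that do not overlap with the genes above, were also within 1.5-fold. Of 31 measured genes of the replication fork and its control, 7 were higher and 24 lower on the OGD array, with a median of -0.06, and 8 were higher and 23 lower after quantile or loess scaling. Of all measured genes 42.8% were higher and 51.3% lower. At 1.2-fold 0 of the 31 were higher and 3 lower, beside 3.56% and 3.97% of all genes. Gins3, a subunit of the complex that activates the helicase, had 57.1 on the OGD array and 75.6 on the resting array, 1.32-fold lower. Rpa3, of the single-strand binding complex, had 123 on the OGD array and 162 on the resting array, 1.31-fold lower. Pold1, the catalytic subunit of polymerase delta, had 136 on the OGD array and 166 on the resting array, 1.22-fold lower. Each of these rests on 1 probe set.

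Other genes of G2, mitosis and cytokinesis had 17 higher and 19 lower of 36 measured. Their median of -0.0053 turned positive after quantile or loess scaling, with 18 higher and 18 lower. Past 1.2-fold were 2 genes in each direction, or 11.1% of the list, against 7.53% of all measured genes. Mad2l1, a checkpoint protein, had 54.9 on the OGD array and 44.6 on the resting array, 1.23-fold higher. Ncapd2, a condensin subunit, had 33.5 on the OGD array and 41.1 on the resting array, 1.22-fold lower. Fzr1, an activator of the anaphase-promoting complex, had -0.29 in its brightest probe set and -0.14 and 0.05 in the others.

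Among 13 measured genes of the retinoblastoma, E2F and MuvB control of transcription, 4 were higher and 8 lower. Past 1.2-fold were 0 higher and 2 lower, beside 3.56% and 3.97% of all measured genes. These 2 were 15.4% of a short list, against 7.53% of all in either direction, and are no result about the list. Lin37, a MuvB subunit, had 72.0 on the OGD array and 92.1 on the resting array, 1.28-fold lower. Mybl2, which joins that complex for mitotic genes, had -0.28 in its brightest probe set and 0.06 in the other. E2f5 had 21.2 on the OGD array and 24.2 on the resting array, near the floor. Of 10 measured kinase inhibitors and regulators of G1, 4 were higher, 5 lower and 0 past 1.2-fold. Cdkn1a, the inhibitor p21, had 119 on the OGD array and 107 on the resting array, with differences of 0.16 and 0.06 in its 2 probe sets. Fbxw7, which targets cyclin E for destruction, had 44.5 on the OGD array and 52.6 on the resting array, and Cks2, a small partner of the kinases, had 1480.4 and 1673.

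RNA was taken from whole cultures. For a difference in either direction, a change in the number of dividing cells and a change in RNA per cell therefore cannot be told apart. Of 12 microglial and macrophage markers on the array, 11 were above the floor on both arrays and Csf1r on the resting array alone. Their summed intensity was 765 on the OGD array and 801 on the resting array. Of this sum, Cd68 alone gave 360 on the OGD array and 371 on the resting array. Several others lay near the floor, among them Tmem119 (OGD 23.1, resting 23.3) and Cx3cr1 (OGD 29.9, resting 31.6). C1qc was higher on the OGD array (OGD 32.3, resting 26.3), and the other microglial markers were lower there. Other cell types had a smaller share of markers above the floor. These were 3 of 7 astrocyte, 3 of 8 oligodendrocyte lineage, 2 of 8 neuronal, 2 of 6 fibroblast and 1 of 5 endothelial markers. The neuronal marker Elavl3 (OGD 108, resting 117) was brighter than each microglial marker but Cd68. So was the fibroblast marker Pdgfrb (OGD 104, resting 118). Summed intensities were 139.5 on the OGD array and 118 on the resting array for astrocytes, 155 and 153 for the oligodendrocyte lineage, 230.0 and 229 for neurons, 192 and 195 for fibroblasts and 92.6 and 79.8 for endothelium. These sums include markers under the floor. Over the measured markers the median log2 difference was 0.43 for the 3 of astrocytes and -0.10 for the 12 of microglia. Among the astrocyte markers, Gfap had 36.9 on the OGD array and 27.4 on the resting array. Slc1a2 had 32.0 on the OGD array and 23.8 on the resting array. Gja1, the third measured, had a smaller difference, with 24.3 on the OGD array and 22.1 on the resting array. All of these values lie near the floor. No marker was listed at 0. Their part in the differences above was not tested.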

How the data were processed

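Biotin-labelled RNA transcribed from oligo(dT)-primed cDNA was measured on 1 array per group, per the labels' protocols. The deposited values are intensities of single probe sets, and their range shows that they are linear. How the authors corrected, summarised and scaled them is not given in the sources used here. Quartiles were 8.47 and 48.0 on the OGD array and 8.45 and 48.2 on the resting array, so a shift shared by most genes cannot be seen. Of 31042 probe sets besides 57 controls, 20826 named 1 gene and 436 several. All 207 probe sets used had their Entrez ID in the RefSeq gene table.

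Values under the floor (the array's median over non-control probe sets) were set to it, and genes above it on 1 array got a bound. The number of arrays limits the precision. The members, lists, sizes and alternatives were chosen with earlier results of these data known. The floor was also placed at the 70th or the 30th percentile, or left out. Further alternatives were genes above the floor on both arrays, median centring, quantile and loess scaling (span 0.3), other probe set rules, a pseudocount at the 25th percentile and narrower membership.

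Genes were named by rule: all measured genes of a role with at most 6, otherwise the 5 with the largest absolute difference above the floor on both arrays, the genes spelled out in the membership rule, those with 3 or more measured probe sets, and the 3 largest of each further list. Other members, and the Anapc subunits of a further list, are named for completeness. The calculation was tested on simulated arrays. Python 3.11.15, pandas 2.3.3 and statsmodels 0.14.6 were used.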

Additional observations from a re-analysis of the deposited data

How the results depend on the processing

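The median difference of the members lay between -0.0071 and 0.0059 under every alternative. The count past 1.5-fold higher was 0 throughout, and the count lower was 0 except with the floor at the 30th percentile and with no floor, where it was 1. That gene was Cdk19, at 11.6 on the OGD array and 17.5 on the resting array, under the floor used here. At 1.2-fold, the count higher was 3 with the floor at the 70th percentile, 3 of 23 genes in the next brightest probe sets and 8 of 129 when each probe set was counted. The count lower was 6 with no floor and 6 when each probe set was counted. The shares over all genes under these alternatives are not given here, so these counts are no result about the members as a group. The other alternatives stayed within 1.5 times the counts reported. Leaving out Stag2 was added after seeing the data. Of 71 named members measured, 58 kept their sign under up to 11 alternatives, and 4 were equal on both arrays. Cdc20 became equal in its next brightest probe set, and 8 turned: Ccnb1, Cdc34, Cdca4, Cdcp1, Kif3c, Kifap3, Mcm10 and Orc5. The choice of probe set turned each of these, and quantile and loess scaling turned Cdc34 too. No paired analysis was possible because each group has 1 array. Signal near the floor limits 25 of the 94 genes above it on both arrays, which had under 39.3 in mean intensity.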

Other observations

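The sizes of the differences recurred from gene to gene. Over all probe sets besides controls, 20412 of the 28341 with unequal values had an absolute log2 difference that, to 6 decimals, was also found in another probe set (72.0%). The share was 56.5% over the brightest probe sets of measured genes and 51.1% (47 of 92) over those of the measured cell cycle and replication genes. The absolute difference of Ccnb1, 0.0788, was found in 245 probe sets, that of Bub1, 0.0915, in 205, and that of Orc3, 0.175, in 168. Among the 8 genes past 1.2-fold, Cenpe also had such a size, as its 0.351 was found in 31 probe sets. Cdk2 and Kifbp shared a difference of 0.209. Exactly equal values were found in 6 of the 98 measured genes here and in 5.86% of all measured genes. By probe set, they were found in 16 of the 207 here (7.73%) and in 8.70% of all. A non-zero whole-number difference in intensity, within 1e-05, was found in 3 of the 98 genes. By probe set, it was found in 4 of the 207 here (1.93%) and in 1.57% of all. What made these sizes recur was not tested.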
